A study of Mus musculus with 2031 samples.

Results

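Long noncoding RNAs that are held in the nucleus were followed across single cells of mouse brain. The genes were 8 of the 49671 in the count table, chosen by name with earlier results of these data known: *Malat1*, *Neat1*, *Meg3*, *Rian*, *Miat*, *Snhg11*, *Kcnq1ot1* and *Gm26917*. They are described across the cell types that the authors assigned and against the share of each cell's counts that fell outside annotated exons. Both the types and the genes were selected on these same counts, so levels by type and their relation to that share are given as descriptions with no test. Only the comparison of brain regions within a subtype was tested.

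Cells came from C57BL/6J mice at postnatal day 56. Astrocytes were sorted as positive for ACSA-2, an antibody against the membrane protein ATP1B2, negative for the oligodendrocyte antigen O1 and negative for the dye 7-AAD, which enters dead cells. The cortical suspensions 1C and 2C were each made from 1 animal of a single litter, and the hippocampal suspensions 1H and 2H were each pooled from 4 littermates of 2 other litters. Region and litter, and the number of mice in a suspension, therefore cannot be told apart. Library PCR block also went largely with region. All cortical cells were in block 1, whereas 403 cells of 1H and 431 cells of 2H were in block 2. Counts of 2030 cells were used (541, 521, 464 and 504 from 1C, 2C, 1H and 2H), of which 1982 had a type and 1781 were astrocytes, divided into the subtypes AST1 to AST5. Gene counts per cell ran from 600758 to 3238215, with a median of 1458411. Levels are CPM, counts scaled to 1000000 gene counts per cell, averaged over the cells of a type in a suspension and given as mean ± SD over suspensions with at least 2 such cells. Molecules were not tagged, so counts are reads. Marker sums add means over all cells of a type, not over suspensions. Astrocyte markers summed to between 28511 and 41018 CPM in the 5 astrocyte subtypes and to at most 3162 CPM in the other types. Neuron markers summed to 3229 CPM in neurons and at most 107.7 CPM elsewhere, though 2 of the 7 neuron markers were at 0 in the neurons. Mural, endothelial, microglia and oligodendrocyte markers each had their highest sum in the cells of that label, but endothelial cells also held 15455 CPM of mural markers, against 22231 CPM of endothelial ones, and the part of mural RNA in their levels was not tested.

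As background, most messenger RNAs leave the nucleus after splicing, whereas some long noncoding RNAs stay there. *Malat1* lies in nuclear speckles, bodies rich in splicing factors, and *Neat1* is the RNA scaffold of paraspeckles. *Kcnq1ot1* and *Meg3* are transcribed from a single parental copy and take part in the silencing of imprinted gene clusters, and *Rian* is transcribed from the same cluster as *Meg3* and hosts small nucleolar RNAs and microRNAs. *Miat* forms nuclear foci in neurons, *Snhg11* hosts small nucleolar RNAs, and *Gm26917* is a predicted gene beside a copy of ribosomal RNA sequence.

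In the mouse genome GRCm38, *Malat1* (19:5795690-5802672) and *Neat1* (19:5824708-5845478) lay on the minus strand of chromosome 19, 22035 bases apart. *Meg3* (12:109541001-109571726) and *Rian* (12:109603940-109661716) lay on the plus strand of chromosome 12, 32213 bases apart. *Miat* was at 5:112213228-112229395 on the minus strand. *Snhg11* was at 2:158375638-158386145 on the plus strand, typed as protein coding by Gencode and as a long noncoding RNA by RefSeq. *Kcnq1ot1* (7:143203458-143296549, minus strand) is a single exon of 93.1 kb that runs antisense inside *Kcnq1* (7:143106362-143427042). *Gm26917* (17:39843013-39846341, plus strand) ended 11 bases before CT010467.1, an annotated ribosomal RNA. The longest transcripts of *Malat1*, *Neat1*, *Kcnq1ot1* and *Gm26917* have 1 exon, and exons cover 100% of these genes, so by this annotation their own reads are exonic. The annotation is another Gencode release than the one the authors counted with, and exon bounds may differ. Exons cover 58.9% of *Meg3*, 57.5% of *Miat*, 31.6% of *Rian* and 81.1% of *Snhg11*.

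Reverse transcription was primed with oligo-dT, which anneals to runs of A. The longest run of A in the transcript is therefore shown for 3 genes with a run of at least 12 bases, beside *Gm26917*, which has none of that length. Sequences were read from Gencode transcripts on GRCm38 and run 5′ to 3′ on the strand of the gene, with the run of A in capitals.
Malat1, chr19:5795948-5796007, minus: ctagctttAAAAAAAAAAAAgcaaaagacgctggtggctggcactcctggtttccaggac
Kcnq1ot1, chr7:143226934-143226993, minus: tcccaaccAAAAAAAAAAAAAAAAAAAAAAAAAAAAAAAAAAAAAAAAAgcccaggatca
Rian, chr12:109652221-109652280, plus: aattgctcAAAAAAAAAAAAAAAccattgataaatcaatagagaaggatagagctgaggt
Gm26917, chr17:39845128-39845187, plus: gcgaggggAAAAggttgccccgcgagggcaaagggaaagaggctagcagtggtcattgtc
The run of *Malat1* had 12 bases. It belongs to the A-rich tract that folds into the triple helix at the 3′ end of the stable RNA. A run of at least 12 was found in some transcript of 7.10% of 55341 genes, and one as long as the 41 bases of *Kcnq1ot1* in 0.0325%. The runs shown are from the longest transcript of a gene, whereas these shares of genes count a run in any transcript. The run of *Rian* had 15 bases, reached by 3.65% of genes. *Gm26917* had no run over 4 bases, and its GC content of 69.1% was reached by 0.278% of genes, against a median of 47.1%. The longest runs of *Neat1*, *Snhg11* and *Miat* had 7, 8 and 4 bases.

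*Malat1* was among the most abundant RNAs of the sorted astrocytes and was nearly missing from one subtype. Over the 1781 astrocytes its mean level was 10754 CPM, rank 7 among 26170 genes with a count, and 99.05% of astrocytes had a count. In AST1 the 4 suspensions stood at 10506 (1C), 11211 (2C), 10466 (1H) and 10537 CPM (2H), a mean of 10680 ± 355.2. In AST2 they stood at 14355, 12813, 15114 and 16269 CPM, 14638 ± 1449, and every one was above every AST1 value. In AST3 they stood at 8476, 7319, 10972 and 11154 CPM, 9480 ± 1889, and overlapped with AST1. Relative to ERCC spike-in counts in place of gene counts, the ratio of AST3 to AST1 turned from 0.888 to 1.14, so the order of these 2 subtypes depends on the scaling.

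The other types held less *Malat1*. Mural cells, the pericytes and smooth muscle cells of vessels, stood at 6920 ± 493 CPM (n = 4 suspensions), narrowly apart from AST3 (at most 7308 against at least 7319 CPM) and overlapping with AST4 at 6136 ± 722 (n = 3). Neurons followed at 4698 ± 1.48 (n = 2) and oligodendrocytes at 4521 ± 794 (n = 3), whose ranges overlapped. Endothelial cells at 3179 ± 376.6 and microglia at 2008 ± 730 (n = 4 each) were each apart from the type above them. These last 4 types rest on 17, 9, 30 and 11 cells.

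AST5 was at the bottom of this order. Its suspensions stood at 4.64 (8 cells), 16.5 (10), 73.2 (6) and 7.75 CPM (2), a mean of 25.5 ± 32.2 CPM that was 418-fold below AST1. Without 1H the mean was 9.63 CPM, so the size of this fold rests on that suspension. Of the 26 AST5 cells, 13 had no count of *Malat1*, the median cell was at 0.233 CPM and the highest at 248.96 CPM. In the same cells the 7 astrocyte markers summed to 41018 CPM as means over cells. As a mean of suspensions *Aldoc*, a glycolytic enzyme abundant in astrocytes, stood at 27021 CPM against 13849 CPM over AST1 to AST3. *Slc1a2* and *Aldh1l1* were also higher in AST5. Lower in AST5 were *Slc1a3* (5496 against 8933 CPM), *Atp1b2* (2209 against 5108), *Aqp4* (568 against 1624) and *Gjb6* (421 against 1898). The median log2 ratio of the 7 markers was −0.70. AST5 cells had a median of 1191244 gene counts and 1674.5 genes with a count, against 1431483 and 1992 in AST1. The part of depth in the difference of *Malat1* was not tested.

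**Figure D1:**
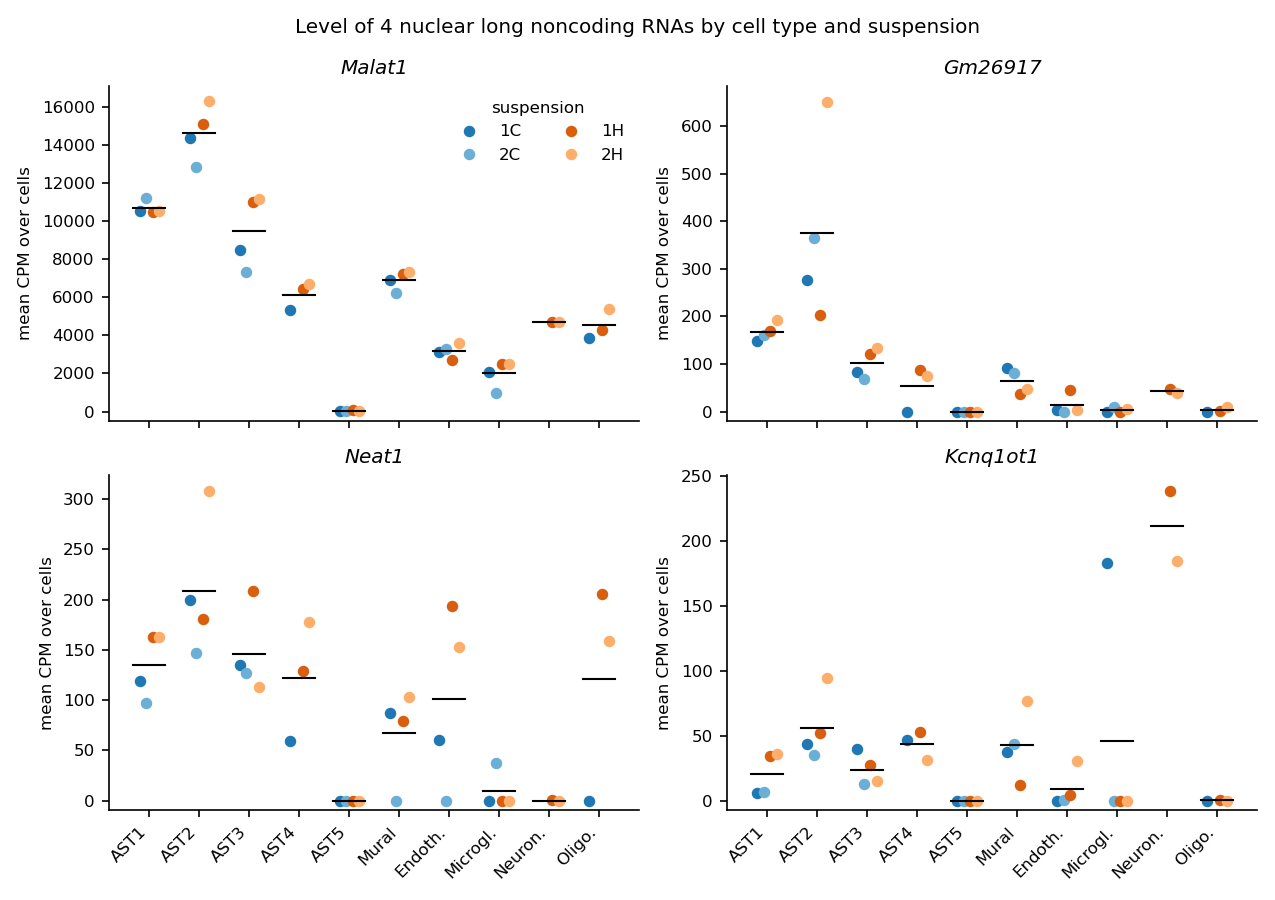
Mean CPM over cells on the vertical axes, by cell type, for *Malat1*, *Gm26917*, *Neat1* and *Kcnq1ot1*; each point is 1 suspension (blue cortex, orange hippocampus) and the line is their mean. AST2 is highest for the first 3 genes, neurons for *Kcnq1ot1*, and AST5 stands at 25.5 CPM for *Malat1* and at 0 for the other 3.

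*Gm26917* followed a like order at a far lower level. AST2 stood at 276.96, 365.5, 203.2 and 652 CPM in 1C, 2C, 1H and 2H (374.4 ± 196.6), above the highest AST1 suspension in each case. AST1 stood at 148, 161.9, 170 and 193.2 CPM (168 ± 18.99), and AST3 at 83.1, 67.6, 121.9 and 133.4 CPM (101.5 ± 31.2), all of them below the lowest AST1 value. It had a count in 66.4%, 82.2% and 61.9% of the cells of AST1, AST2 and AST3. Mural cells held 64.3 ± 26.97 CPM (n = 4), AST4 54.6 ± 47.7 (n = 3; 81.9 ± 8.60 without the 2 cells of 1C, above the mural mean) and neurons 43.4 ± 6.42 (n = 2), while endothelial cells, oligodendrocytes and microglia were at 13.2 CPM or less. In AST5 it had a count in 0 of 26 cells, which allows a share of up to 11.5% of cells with a count if the cells are taken as independent. Such limits are on cells with a count, and a cell with none may still hold the RNA.

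The reads of *Gm26917* are uncertain, since near-identical copies of such sequence lie in ribosomal DNA and only unique reads were counted. The neighbouring ribosomal RNA gene CT010467.1 (17:39846353-39848827, minus strand) did not share its pattern. It had counts in 100% of cells of every type and stood at 17657 ± 5356 CPM in AST5, against 9355 ± 1046 in AST1, 7163 ± 953 in AST2 and 7902 ± 813 in AST3. Within subtypes and suspensions, the median Spearman correlation over cells between the 2 genes was 0.1001.

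*Neat1* was found in 44.8% of astrocytes with overlapping levels in most types. AST2 stood at 209.1 ± 69.9 CPM, AST3 at 146.1 ± 42.96, AST1 at 135 ± 32.6 (n = 4 suspensions each) and AST4 at 121.99 ± 59.1 (n = 3; 153.1 ± 34.4 without the 2 cells of 1C, above the AST3 mean), and the ranges of all neighbours in this order overlapped. Among cells with a count the median was 257.4 CPM in AST1 and 277.997 CPM in AST2, and the highest astrocyte had 2244 CPM. Oligodendrocytes held 121.6 ± 107.9 CPM, endothelial cells 101.7 ± 87.9, mural cells 67.5 ± 46.1 and microglia 9.35 ± 18.7. The lowest were neurons, at 0.115 CPM with 3 counts in all in 2 of 17 cells, and AST5, with a count in 0 of 26 cells.

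*Kcnq1ot1* was highest in neurons. The neuronal cells stood at 238.4 CPM in 1H and 184.4 CPM in 2H (211.4 ± 38.2, n = 2), with a count in 13 of 17 cells, and both values lay above every suspension mean of the other types. A single microglial cell of 1C, at 548 CPM, set the only close value, 182.5 CPM over 3 cells. Among astrocytes 17.1% of cells had a count, and the levels were 56.2 ± 26.6 CPM in AST2, 43.8 ± 11.04 in AST4, 23.8 ± 12.4 in AST3 and 20.9 ± 16.6 in AST1 (n = 3 for AST4 and n = 4 for the others). AST5 again had a count in 0 of 26 cells. Counting did not use strand, so reads of *Kcnq1ot1* and of its sense partner *Kcnq1*, a potassium channel gene, cannot be told apart where they overlap. Reads assigned to *Kcnq1* itself were at 0 in every type but endothelial cells, where 2 of 30 cells had any. Levels of the other 12 genes of that imprinted domain are means over all cells of a type, not over suspensions. Of these genes, 3 also had their highest level in neurons, 7 in another type, and 2 were at 0 in every type. *Cdkn1c*, a cell cycle inhibitor that *Kcnq1ot1* silences on the paternal copy, stood at 208.2 CPM in neurons, with a count in 64.7% of cells, against at most 1.05 CPM in any astrocyte subtype. *Tssc4* stood at 96.3 CPM and *Osbpl5* at 90.3 CPM in neurons, whereas *Cd81* was lowest there, at 977 CPM against 5098 CPM in AST1.

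Per kilobase of annotated exon, *Malat1* stood at 1540 CPM over astrocytes, *Gm26917* at 59.3, *Neat1* at 7.45 and *Kcnq1ot1* at 0.348. Whether reads cover these exons evenly after oligo-dT priming was not tested, so the values do not rank the genes. *Malat1* made up between 95.1% and 97.2% of the counts of the 8 genes in every type but 2. In AST5 it was 100% of a total of 869 counts, and in neurons it was 35.4%.

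Neurons were set apart by *Snhg11* and *Meg3*. All 17 neuronal cells came from hippocampus, 8 from 1H and 9 from 2H. *Snhg11* had a count in 17 of 17, from 3468 to 8793 CPM in 1H (median 5359) and from 2402 to 9799 CPM in 2H (median 6868), a mean of 6369 ± 665 CPM over the 2 suspensions. *Meg3* had a count in 16 of 17 cells, from 0 to 2803 CPM in 1H (median 1507) and from 545 to 5676 CPM in 2H (median 1754), and a mean of 1870 ± 487 CPM. *Snhg11* thus exceeded *Malat1* in the neuronal means, which it did in no other type.

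*Rian* and *Miat* were found in fewer neurons. *Rian* had a count in 7 of 17 cells, reached 499 CPM in 1H and 433 CPM in 2H, and averaged 101.4 ± 26.1 CPM. All 7 cells with *Rian* also had *Meg3*, as had 16 of all 17. *Miat* had a count in 2 cells, both of 2H, at up to 241.97 CPM, and in 0 of 8 cells of 1H, which allows up to 37.5%. Neither *Miat* cell had *Rian*. Of the other genes of the *Meg3* cluster, *Rtl1*, a retrotransposon-derived gene read from the opposite parental copy, had a count in 3 of 17 neurons, and *Dlk1*, *Mirg* and *Dio3* in 0 of 17, which allows up to 17.6% of cells.

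**Figure D2:**
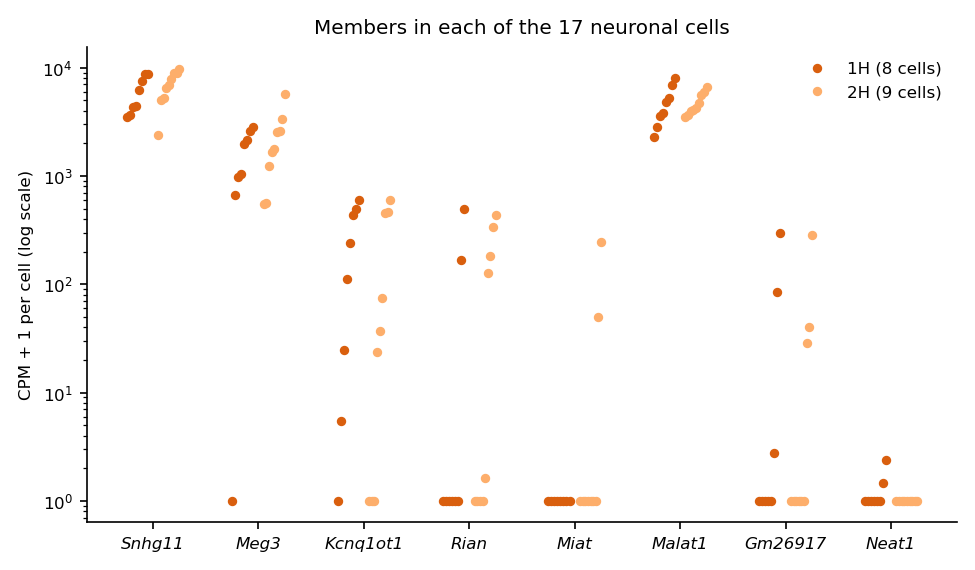
CPM + 1 on a log axis for the 8 genes in each neuronal cell (dark orange 1H, 8 cells; light orange 2H, 9 cells), where a value of 1 marks a cell with no count. *Snhg11* and *Malat1* are at 2273 CPM or more in every cell, *Meg3* is missing from 1 cell, and *Neat1* is at most 1.39 CPM.

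Outside neurons these 4 RNAs were rare. *Meg3* had a count in 14.2% of mural cells (16.4 ± 13.3 CPM, n = 4), in 4 of 30 endothelial cells (18.1 ± 28.9 CPM) and in 25 of 1781 astrocytes, of which the highest held 1235 CPM. *Snhg11* had a count in 28 astrocytes, most often in AST4 (5.49% of cells, 11.9 ± 11.7 CPM), and in 2 mural cells. *Rian* was found in 3 mural cells and 1 astrocyte, and *Miat* in 6 astrocytes. In AST5 all 4 had a count in 0 of 26 cells. Neuron markers were summed over 7 genes in the same cells. Every neuron had at least 804 CPM of them, whereas 100 CPM was passed by 3 of the 25 astrocytes with *Meg3* and by 72 of the 1756 without it. It was passed by 1 of the 28 astrocytes with *Snhg11* and by 0 of the 19 mural cells with *Meg3*. Only 2 astrocytes held both *Meg3* and *Snhg11*.

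The share of counts outside annotated exons varied between cells and types. Such counts come from introns, which are read from RNA not yet spliced and so mostly nuclear, and from sequence between genes, and the files do not tell them apart. Over cells the mean share was 13.9% in AST1, 14.6% in AST2, 11.1% in AST3 and 11.8% in AST4. It was 14.8% in neurons, 14.2% in microglia, 11.3% in mural cells, 10.2% in endothelial cells and 6.2% in oligodendrocytes. AST5 cells had between 0.886% and 2.51%, a mean of 1.61%.

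*Malat1* stood higher in cells with a larger share. Spearman correlations were taken over cells within 11 groups of 1 subtype and 1 suspension, each of AST1, AST2 or AST3 with at least 20 cells. The median was 0.595 for *Malat1*, with a range of 0.269 to 0.733 and all 11 positive. Among 2568 genes with a count in over 25% of astrocytes the median was −0.0489, 21.5% were above 0 and the 95th percentile was 0.0699, and *Malat1* had the highest value of all. Both measures come from the same library of a cell and share its depth. Cells with a larger share had fewer gene counts (median correlation −0.326), and *Malat1* in CPM itself went down with gene counts per ERCC count (−0.535, 0 of 11 positive). Scaled by ERCC counts in place of gene counts, the correlation of *Malat1* with the share was 0.295. How much of the relation the depth or the RNA content of a cell carries was not tested.

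The other 3 RNAs of astrocytes had weak correlations with the share. The median was 0.163 for *Gm26917* (−0.0347 to 0.279), 0.140 for *Neat1* (−0.0589 to 0.372) and 0.139 for *Kcnq1ot1* (−0.130 to 0.175), each positive in 10 of 11 groups, in counts that many cells lack. Over cells of a group the RNAs hardly went together: the median correlation of *Malat1* was 0.00499 with *Neat1*, 0.0669 with *Kcnq1ot1* and 0.0855 with *Gm26917*. *Meg3*, *Rian*, *Miat* and *Snhg11* were in too few astrocytes for a correlation to be read.

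Cells of each subtype and suspension used for the correlations were also ranked by the share and divided into 5 parts of like size. Parts of the same rank were pooled over AST1, AST2 and AST3, so the split is by rank and not by fixed limits of the share. The median shares of the 5 pooled groups were 8.13%, 10.6%, 12.8%, 15.8% and 20.5%. *Malat1* stood at 7380 ± 421, 9281 ± 643, 11041 ± 501, 13093 ± 343.8 and 14752 ± 1227 CPM from the lowest group to the highest (n = 4 suspensions). *Neat1* went from 90.6 ± 29.5 CPM in the lowest group to 220.6 ± 21.2 in the highest, and was found in 37.03% and 54.2% of their cells. *Gm26917* went from 140 ± 21.2 to 288 ± 95.4 CPM, in 62.6% and 78.5% of cells, and *Kcnq1ot1* from 9.56 ± 6.03 to 58.1 ± 19.6 CPM. The shares of cells with a count did not rise at every step: for *Neat1* they were 37.03%, 43.6%, 50.3%, 44.3% and 54.2%. Median gene counts over the same groups went from 1748619 down to 1275896, and the part of depth in these values was not tested.

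**Figure D3:**
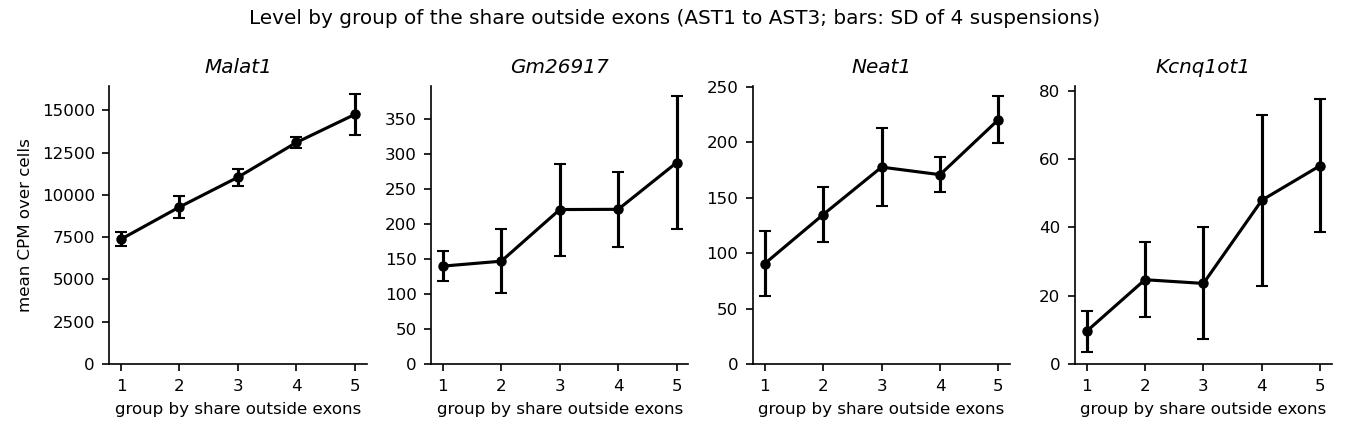
Mean CPM over cells (vertical axes) in AST1 to AST3 cells, with bars for the SD over 4 suspensions. Cells were divided within subtype and suspension into 5 groups by rank of the share of counts outside exons (horizontal axes, 1 lowest). *Malat1* goes from 7380 to 14752 CPM in even steps, and the other 3 RNAs go up with wider bars.

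Levels by type were also taken among cells of a like share, though shares within the range used were not matched between types. Among cells with a share between 10% and 15%, AST1 stood at 10093 ± 521 CPM, AST2 at 13652 ± 1883 and AST3 at 10329 ± 1841 (n = 4 suspensions each). Mural cells stood at 8032 ± 539 (n = 4), AST4 at 6937 ± 108.4 (n = 2), endothelial cells at 3484 ± 620 (n = 3) and microglia at 1486 ± 645 (n = 2). These rest on 82, 37, 15 and 4 cells. At this share AST3 overlapped with AST1, with AST2 and also with mural cells, from which it was apart over all cells. *Gm26917* stood at 183.2 ± 46.9 CPM in AST1, 292.2 ± 169.3 in AST2 and 118.7 ± 49.7 in AST3, and the range of AST2 overlapped with AST1 only through 1H, at 72.7 CPM over 5 cells, the other AST2 suspensions standing at 284.3 CPM or more. *Neat1* stood at 152.8 ± 39.2 CPM in AST1, 146.9 ± 47.7 in AST2 and 168.4 ± 63.8 in AST3, so AST2 was no longer the highest.

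Nearly all cells with little or no *Malat1* lay below a gap in the share. No cell had a share between 2.51% and 3.12%, and a limit of 2.6% was set in that gap after the values had been seen. Below it were 51 cells: all 26 AST5 cells, 6 of AST1, 3 of AST2, 2 of AST4, 13 with no type and 1 that the list of types lacks. *Malat1* had a count in 27 of the 51, with a median of 0.620 CPM. The highest, an AST1 cell of 2C with a share of 2.14%, held 4882 CPM, and the next held 259.4 CPM. *Neat1*, *Kcnq1ot1*, *Rian* and *Miat* had a count in 0 of the 51, which allows up to 5.88% of such cells, while *Gm26917*, *Meg3* and *Snhg11* had one in 1 cell each, at 245.6, 262.3 and 28.6 CPM. Every astrocyte above the gap had a count of *Malat1*, and the 16 with a share of up to 5% averaged 4598 CPM.

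**Figure D4:**
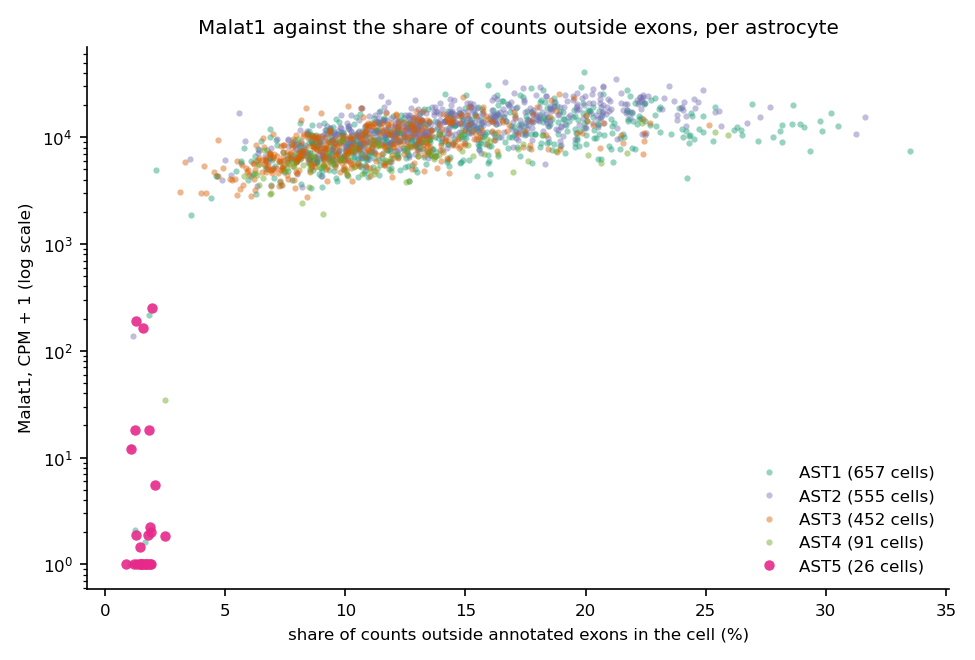
*Malat1* (CPM + 1, log axis) against the share of a cell's counts outside annotated exons (%), for 1781 astrocytes coloured by subtype. The 26 AST5 cells lie below 2.6% with at most 248.96 CPM, together with a few cells of AST1, AST2 and AST4, and the other astrocytes lie above 3%.

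Proteins of the same nuclear bodies were read in AST5 from lists of genes. Of 14 nuclear speckle genes with a count in over 25% of astrocytes, 8 stood in AST5 at under 10% of their level in AST1 to AST3, against 8.45% of all 2568 such genes, and the median log2 ratio was −3.31 against 0.14. *Clk1*, a kinase of splicing factors, stood at 0 against 566 CPM, *Pnisr* at 0.0654 against 481 CPM and *Son*, a scaffold of speckles, at 30.3 against 544 CPM. *Srsf3*, also a splicing factor, went the other way, at 386 against 178 CPM. Of 6 paraspeckle genes only *Rbmx* was under 10% (0 against 229.1 CPM), and *Nono*, a core paraspeckle protein, stood at 156.3 against 120.1 CPM. Of 20 other long noncoding RNAs listed, 3 were found in over 25% of astrocytes and 0 of these were under 10%: *Tug1* stood at 113.98 against 155.8 CPM, *Pantr1* at 358.5 against 174.5 CPM and *C130071C03Rik* at 47.6 against 75.9 CPM as a mean of suspensions. The last value rests on 1 AST5 cell, and over all AST5 cells it was 14.6 CPM. AST5 was found by clustering these counts, so these values describe it and test nothing.

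Some of these splicing genes also went with the share within the subtypes. *Son* had a median correlation of 0.274 and *Pnisr* one of 0.210, and 11 of the 14 speckle genes were above 0, with a list median of 0.0683. Of the 6 paraspeckle genes 1 was above 0, near the 21.5% of all genes, and *Tug1*, *Pantr1* and *C130071C03Rik* were at −0.0541, −0.0792 and 0.0156. The genes with the highest values after *Malat1* were *Gm3764*, a long noncoding RNA (0.306), *Son* and the clock gene *Per3* (0.244), which were chosen after their values were seen.

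Likeness of pattern was measured as the Pearson correlation of log2 mean CPM over 26 means of 1 type in 1 suspension, among 14566 genes. These means share libraries and a common zero in many types, and RNAs of a single type are alike by that zero. The closest to *Malat1* were *Pnisr* (0.972), *Clk1* (0.967) and *Rbmx* (0.965). In AST5 *Pnisr*, *Clk1* and *Rbmx* stood at 0.0654, 0 and 0 CPM, and *Malat1* was nearly missing there too. The part of the AST5 means in these correlations, and in those of *Gm26917*, was not tested. *Gm26917* was closest to *Leng8* (0.912), *Rsrp1* (0.908) and *Rbmx* (0.905), *Neat1* to *Tgfb2* (0.957) and *Kcnq1ot1* to *Zfp638* (0.888). *Snhg11* was closest to *Chgb* (0.951) and *Meg3* to *Gm27000* (0.941), followed by *Chga* (0.890), and *Chga* and *Chgb* code for granins of secretory vesicles. *Rian* was closest to *Sh3gl3* (0.951) and *Miat* to *Cers6* (0.920). Among the 8 genes themselves the correlation was 0.887 for *Malat1* and *Gm26917*, 0.851 for *Meg3* and *Rian* and 0.823 for *Meg3* and *Snhg11*. By rank correlation or over astrocyte subtypes alone most of these nearest genes were others.

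Hippocampus was compared with cortex within AST1 and AST3, the subtypes with the most cells in all 4 suspensions. AST2 had 10 and 22 hippocampal cells and was not tested. There *Malat1* stood at 15114 and 16269 CPM in hippocampus and 14355 and 12813 CPM in cortex, and *Kcnq1ot1* at 52.02 and 94.7 against 43.3 and 34.97 CPM. The regions overlapped in AST2 for *Gm26917* (203.2 and 652 against 276.96 and 365.5 CPM) and for *Neat1* (180.9 and 308.5 against 200.1 and 146.8 CPM). Counts were summed per suspension and tested by the quasi-likelihood method of edgeR, and p-values were adjusted over all genes by Benjamini-Hochberg. With 2 suspensions per region the test called 0 of 15521 genes in AST1 (0%), 0 of 14960 in AST3 (0%) and 0 of 17213 for the difference between the subtypes (0%). At an unadjusted p under 0.05 there were 2023, 1547 and 646 genes. DESeq2 called 2711, 2067 and 1868 of the same 15521, 14960 and 17213 genes, so a call by it is not particular to the 8 genes. Its adjusted p is given below only for those effects of the 8 genes that it called. None of the 8 genes was called by edgeR, and *Rian* and *Miat* did not pass its filter on low counts. In simulated data the edgeR test found 50%, 69% and 60.5% of genes changed 16-fold, so a gene not called may still differ. With 2 suspensions per region, the regions lie apart without overlap for many genes by chance alone. The share of all genes that do so was not counted, so such a separation below is only a description.

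In AST3, *Malat1* was higher in both hippocampal suspensions (10972 and 11154 CPM) than in both cortical ones (8476 and 7319 CPM). The log2 fold change was 0.52 (SE 0.09, 1.43-fold, 95% interval 1.20 to 1.71), with p = 0.00497 and adjusted p = 0.380 by edgeR, and with adjusted p = 8.55e-08 by DESeq2. In AST1 the regions overlapped and the log2 fold change was −0.03 (SE 0.07, adjusted p = 1.00 by edgeR). The difference between the 2 subtypes was 0.55 (SE 0.13), with p = 0.0161 and adjusted p = 0.777 by edgeR, and by DESeq2 it was 0.67 with adjusted p = 2.3e-05. The median share of counts outside exons in AST3 was 12.1% and 11.9% in hippocampus and 10.7% and 9.55% in cortex, and in AST1 it was 13.2% and 12.95% against 10.99% and 10.6%. Among cells with a share between 10% and 15%, *Malat1* in AST3 stood at 10660 and 12776 CPM in hippocampus and 9266 and 8614 CPM in cortex, again without overlap. In AST1 at that share the cortical suspensions were the higher (10683 and 10377 against 9703 and 9611 CPM). Immediate early genes, which respond to cell dissociation among other stimuli, had lower fitted levels in hippocampal AST3. EdgeR called 0 of 15 of them, as it did 0 of all 14960 genes, and their median log2 fold change was −0.995 against −0.04 over all genes. *Dusp1* and *Fos* had log2 fold changes of −0.80 (SE 0.13) and −0.45 (SE 0.12). Their part in the difference of *Malat1* was not tested. The difference of *Malat1* in AST3 was positive on 9 of 10 reverse transcription dates that held both regions (median log2 0.51), which divide cells of the same 4 suspensions and are no further replicates, and was 0.53 among plates of library PCR block 1 alone, which held all cortical plates and 20 hippocampal AST3 cells.

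For *Kcnq1ot1* the regions lay apart in AST1 and not in AST3. In AST1 it stood at 34.5 and 36.1 CPM in hippocampus and 6.17 and 6.87 CPM in cortex, without overlap. The log2 fold change was 2.11 (SE 0.56, 4.33-fold, 95% interval 1.47 to 12.7), with p = 0.0194 and adjusted p = 0.258 by edgeR, and with 4.63e-07 by DESeq2. In cortex the value rests on 1 of 57 cells of 1C and 3 of 55 cells of 2C, against 17.7% and 14.96% of cells in 1H and 2H. On 7 of the 10 dates no cortical AST1 cell had a count, so the dates add no check of the direction. Among cells with a share between 10% and 15% it was at 29.9 and 30.7 CPM in hippocampus and at 0 in cortex, where only 20 and 16 AST1 cells lay in that range. In AST3 the suspensions overlapped (27.3 and 15.1 against 39.8 and 12.9 CPM) and the log2 fold change was −0.35 (SE 0.84), and the difference between the subtypes was −2.35 (SE 1.06, adjusted p = 0.777 by edgeR). *Gm26917* was higher in hippocampus in AST3 without overlap (121.9 and 133.4 against 83.1 and 67.6 CPM, log2 0.73, SE 0.23, adjusted p = 0.420 by edgeR and 0.00519 by DESeq2) and in AST1 (170 and 193.2 against 148 and 161.9 CPM, log2 0.34, SE 0.25, adjusted p = 0.847 by edgeR). Among cells with a share outside exons between 10% and 15%, the order in AST1 turned: *Gm26917* stood at 151.2 and 136.6 CPM in hippocampus and at 209.6 and 235.3 CPM in cortex. In AST3 it stayed higher in hippocampus at that share (148.5 and 172.5 against 68.4 and 85.4 CPM). In library PCR block 1 alone the log2 difference of *Gm26917* was 0.64 in AST3 and 0.27 in AST1. *Neat1* in AST1 was higher in hippocampus without overlap (162.6 and 162.7 against 118.8 and 97.7 CPM, log2 0.52, SE 0.22, adjusted p = 0.499 by edgeR). In AST3 the regions overlapped for *Neat1* (log2 0.30, SE 0.33, adjusted p = 0.966 by edgeR). The fits of *Meg3* and *Snhg11* rest on few cells, since 25 and 28 astrocytes in all had a count of them, and their SE in AST1 and AST3 were 1.79 or more, though DESeq2 called *Snhg11* in AST1 (log2 5.36, adjusted p = 0.0021).

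**Figure D5:**
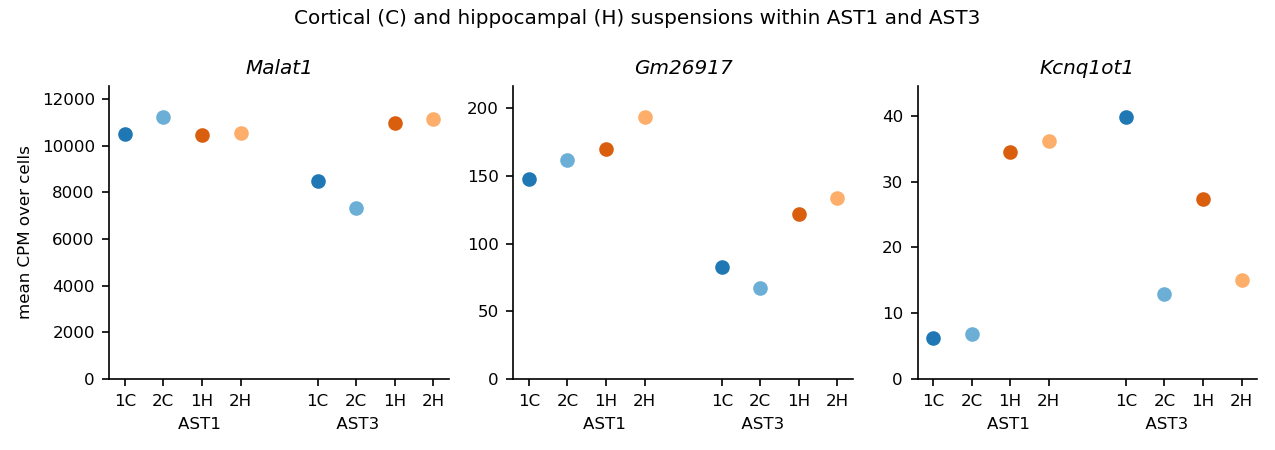
Mean CPM over cells (vertical axes) of *Malat1*, *Gm26917* and *Kcnq1ot1* in each suspension, for AST1 and AST3 (blue cortex, orange hippocampus; each point is 1 suspension). Hippocampal points lie above cortical ones for *Malat1* and *Gm26917* in AST3 and for *Gm26917* and *Kcnq1ot1* in AST1.

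No gene of the nuclear body lists was called between regions by edgeR, which called 0% of all genes tested, so this is no trait of the lists. Of 18 nuclear speckle genes and 20 paraspeckle genes tested in each subtype, 0 were higher and 0 lower, and the median log2 fold changes were 0.20 and 0.0049 in AST3, against −0.04 over all genes, and 0.022 and 0.020 in AST1, against 0.099 over all genes. *Son* had a log2 fold change of 0.64 (SE 0.10) in AST3 and −0.02 (SE 0.13) in AST1, and *Clk1* had 0.25 (SE 0.14) and −0.27 (SE 0.11). *Hnrnpk* had −0.0048 (SE 0.11) and −0.03 (SE 0.12), and *Rbmx* −0.15 (SE 0.34) and −0.25 (SE 0.15). Of other long noncoding RNAs, *Pantr1* had −0.76 (SE 0.15) and 0.30 (SE 0.44), and *Tug1* 0.41 (SE 0.24) and 0.53 (SE 0.17). *Cd81*, a membrane protein gene of the *Kcnq1* domain, had 0.64 (SE 0.08) in AST3 and 0.33 (SE 0.06) in AST1. *Nap1l4* of the same domain had 0.12 (SE 0.22) and 0.30 (SE 0.35).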

How the data were processed

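Single astrocytes and other cells were sorted from 4 suspensions onto 32 plates and sequenced with Smart-seq2. The authors mapped the reads with STAR 2.5.2b to GRCm38.p5 with the ERCC sequences, kept unique reads and made a count for every gene in HTSeq. The counts were deposited raw, cell by cell, with totals for reads outside annotated exons and ERCC counts, which were left out of library sizes. Of 2031 samples, 1 has no file of its own here, and 2023 columns of the series-wide table, a copy of the same counts, were not used (64 of 64 values compared were equal). Cell types are the authors'; 33 cells are not in the list used here and 15 have no type. No pair of cells had identical counts. Gene names and positions came from Gencode and RefSeq tables, with 49326 of 49671 genes matched. The transcript sequence of 1 member is not reported here.

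The members and gene lists were chosen with earlier results of these data known. Named genes are the 8 members, the list genes, the 3 genes most alike to each member and their neighbours; for regions, the 2 list genes of highest level. Suspensions were the replicates. Sums per suspension were tested with edgeR 4.0.16 in R 4.3.3 (TMM, low-count filter, quasi-likelihood test, adjusted p under 0.05); the difference between subtypes had a term for suspension. Other values used Python 3.11.15, numpy 2.4.6, scipy 1.17.1 and pandas 2.3.3. The tests were tried on simulated data with 200 genes changed 16-fold. They recovered 50% of these in AST1, 69% in AST3 and 60.5% for the difference between subtypes, with 11, 12 and 4 false calls. Alternatives covered RLE scaling, DESeq2 1.42.0, the filter, each suspension left out, thinning to 50000 counts, other totals, ERCC scaling, batches and, added after seeing the data, leaving out cells below 2.6% outside exons. Limits on a share of 0 are 3 cells over the number of cells, and cover the sampling of cells only.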

Additional observations from a re-analysis of the deposited data

Results flagged for a closer look

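In groups of 4 suspensions, 1 value lay far from the other 3, by the ratio of its gap to the range of the group, in 11 of 38 groups. Chance alone gives about 1 in 20 for normal values of 1 population. That rate does not hold for the 3 of these groups in which the other 3 values were 0. The groups also mix cortex and hippocampus, and many values lie near 0, so 11 of 38 cannot be set against that rate. Most of these values come from single cells in types of few cells or from genes that most cells lack. They were *Gm26917* in endothelial cells of 1H (44.3 CPM), *Kcnq1ot1* in endothelial cells of 2H (30.5 CPM) and in microglia of 1C (182.5 CPM), *Neat1* in microglia of 2C (37.4 CPM), *Meg3* in endothelial cells of 2C (61.2 CPM) and in AST3 of 2H (0.372 CPM), *Rian* in mural cells of 1H (48.7 CPM) and in AST1 of 1C (0.451 CPM), *Miat* in AST1 of 1C (4.76 CPM), and *Snhg11* in AST3 of 2H (6.81 CPM). *Malat1* in AST1 of 2C (11211 CPM) stood apart only because the other 3 suspensions lay between 10466 and 10537 CPM.

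Cells outside the comparisons also held *Malat1*. The 33 cells that the list of types lacks, all of 1C, had a median of 10854 CPM, and all 33 had a count. The 15 cells with no type had a median of 3.62 CPM. Of these, the 13 with a share of counts outside exons below 2.6% held at most 216.04 CPM, and the other 2 held up to 14087 CPM.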

How the results depend on the processing

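Of 30 recomputed counts of called genes, 27 stayed at 0, and DESeq2 gave 2711 in AST1, 2067 in AST3 and 1868 for the difference, with the cause not tested. Of 192 region effects of members 165 kept their direction and call. Of 471 levels by type and ratios of levels to AST1, 425 stayed within their limit, 43 moved beyond it and 3 turned. The limit was the spread over suspensions for a level and a set fold for a ratio, and only ratios could turn. *Malat1* in AST1, near 0, turned to 0.017 with thinned cells and took values from −0.097 to 0.033 when single suspensions were left out. *Meg3* in AST1 turned to −0.00012 with RLE scaling, −4.6e-05 with DESeq2 and −0.38 with thinned cells. Without single suspensions, log2 fold changes spanned −0.94 to 13.14 for *Meg3* and 0.10 to 0.61 for *Gm26917* in AST1, −5.80 to 3.71 for *Meg3*, −7.99 to 12.97 for *Snhg11*, −0.18 to 0.67 for *Neat1* and −1.08 to 0.80 for *Kcnq1ot1* in AST3, and for the difference between subtypes −11.61 to 5.32 for *Snhg11* and −0.72 to 0.14 for *Neat1*. By ERCC counts the level relative to AST1 turned to 1.14 for *Malat1* in AST3, and to 1.07 and 1.91 for *Neat1* in AST4 and oligodendrocytes.

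The suspension numbers do not pair the suspensions, which come from different litters: deviations from the group means of same-numbered suspensions correlated at −0.0100 in AST1 and 0.0224 in AST3 over 17213 genes. With the number as replicate block edgeR called 0 genes in AST1 and 0 in AST3, as without it. The difference between subtypes without a replicate block also gave 0 called genes, and the value of *Meg3* turned from −3.99 to 1.66.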
